A study of Mus musculus with 6 samples.

Results

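The genes described here are 9 junction and adhesion molecules of endothelial cells, chosen by name, and all 9 are among the 13595 genes of the table. They form 2 sets. The endothelial-restricted set holds Pecam1, Cdh5, Cldn5, Esam, Icam2 and Jam2, and the general set holds F11r, Tjp1 and Cdh2, which many cell types carry. RNA was measured in 6 poly(A) libraries, each made from primary cells positive for CD31 that had been taken from the liver of C57BL6/J mice, 4 weeks of age, and then cultured. The labels call 3 libraries male and 3 female, each with the replicate numbers 4, 5 and 6, and these are named male-labelled and female-labelled here. All 6 cultures received 100 µM indoxyl sulfate, a tryptophan metabolite that activates the aryl hydrocarbon receptor (AHR), together with hypoxia and nutrient deprivation for 6 hours. The only contrast was therefore between libraries labelled male and female, and the effects of indoxyl sulfate and of hypoxia were not analysed here. CD31 is the protein of Pecam1, so the cells had been selected on the product of 1 of the 9 genes.

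Endothelial cells line vessels and hold on to each other through junctions. VE-cadherin and its catenins form adherens junctions, claudins and junctional adhesion molecules form tight junctions on a ZO-1 scaffold, and PECAM-1 and ICAM-2 sit at the same borders. Together these set how leaky a vessel is and how leukocytes cross it. Sinusoidal endothelium of the liver is known for its open pores and its weak barrier, and it is known to lose its specialised features in culture.

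The libraries held between 22303270 and 31189363 reads. The labels do not say whether replicates are mice, isolations or wells, so p-values measure only the spread between these libraries. Male 4 stood apart from the other libraries of its group, with a chi-square per gene of 43.6 and 45.4 against them, where male 5 and male 6 gave 5.98 and the female-labelled pairs gave 4.35 to 9.59. The X-linked RNA Xist followed the labels, at 234 to 324 in female-labelled and 0.124 to 0.458 in male-labelled libraries. Y-linked genes were read in every library. Ddx3y was read at 48.5 to 57.7 in female-labelled and 47.2 to 76.3 in male-labelled libraries, and Uty at 22.2 to 27.7 and 23.7 to 32.0. Eif2s3y was at 29.4 to 30.2 against 55.3 to 61.2, and Kdm5d at 17.6 to 20.8 against 30.7 to 37.5, in the same order. Of these 4, Eif2s3y (log2FC -0.94) and Kdm5d (-0.83) were called lower in female-labelled libraries by the limma test described below, and Ddx3y and Uty overlapped and were not called. These are 91.5% (Ddx3y), 89.6% (Uty), 51.3% (Eif2s3y) and 54.8% (Kdm5d) of the male-labelled means, and which cells gave the Y-linked reads of the female-labelled libraries was not tested. Every direction given here is a contrast of labels. No batch is named in the labels, and the labelled sex cannot be told apart from any batch that ran with it.

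As all cultures were given an AHR ligand in hypoxia, the promoter windows of the members were searched for core letters of the elements bound by AHR (GCGTG) and by hypoxia-inducible factors (ACGTG, and also GCGTG). The RefSeq promoter table (GRCm38.p6) held 3 of the 9 members, F11r, Tjp1 and Cldn5. The 250 bases before each start site are shown 5′ to 3′ on the strand of the gene, with matches to GCGTG or ACGTG on either strand in capitals and all other letters in lower case.
F11r (chr1:171437311-171437560, plus strand): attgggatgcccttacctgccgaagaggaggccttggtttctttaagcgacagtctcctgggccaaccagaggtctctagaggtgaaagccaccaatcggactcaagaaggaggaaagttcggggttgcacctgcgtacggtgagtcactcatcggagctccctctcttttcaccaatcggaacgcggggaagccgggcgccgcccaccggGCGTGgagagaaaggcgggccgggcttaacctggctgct
Tjp1 (chr7:65371245-65371494, minus strand): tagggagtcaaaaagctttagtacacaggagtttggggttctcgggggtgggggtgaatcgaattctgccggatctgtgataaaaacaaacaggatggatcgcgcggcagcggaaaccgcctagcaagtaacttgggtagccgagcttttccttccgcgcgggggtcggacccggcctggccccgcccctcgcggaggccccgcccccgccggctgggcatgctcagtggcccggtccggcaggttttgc
Cldn5 (chr16:18776597-18776846, plus strand): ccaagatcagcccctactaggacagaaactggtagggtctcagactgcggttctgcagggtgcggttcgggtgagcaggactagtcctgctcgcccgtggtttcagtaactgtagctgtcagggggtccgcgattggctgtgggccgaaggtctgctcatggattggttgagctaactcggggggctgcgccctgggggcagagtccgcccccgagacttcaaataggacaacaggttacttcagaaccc
F11r held 1 GCGTG, which began 39 bases before the start, and no ACGTG. The Tjp1 and Cldn5 windows held neither set of letters. Among 32851 promoter windows of this length, 28.2% held GCGTG and 16.6% held ACGTG on either strand. The letters GGAA, the core bound by ETS factors, occurred 3 times in F11r, 3 times in Tjp1 and 0 times in Cldn5, and 93.4% of windows held them. CAGGTG, an E-box bound by Snail-type repressors, occurred once, in F11r, where 17.2% of windows held it. A match is a string of letters and not a bound site.

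Across the members, RNA of the endothelial-restricted genes was lower in female-labelled libraries, by amounts that ranged widely, as was that of the general genes F11r and Tjp1. The general gene Cdh2 was higher, in groups that overlapped and with a call that several settings lost. All values below are normalized read counts. The test was limma on log2(value + 1), with p-values adjusted by the Benjamini-Hochberg method across 12568 genes, and log2FC stands for the log2 fold change of female-labelled over male-labelled libraries. Of the 9 members, 8 passed the filter on low values and Cldn5 did not. Lower RNA was called for 7 of these 8 and higher RNA for 1. Over all tested genes 69.3% were called, 34.6% as lower and 34.6% as higher. The groups did not overlap for 8 of the 9 members, where 74.1% of tested genes had groups apart, 37.0% on the lower side and 37.1% on the higher. The median log2FC was -1.53 for the 5 tested endothelial-restricted genes and -0.51 for the 3 general genes, against 0.01 for all tested genes. In bulk RNA, fewer cells of a type and less RNA per cell cannot be told apart.

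**Figure D1:**
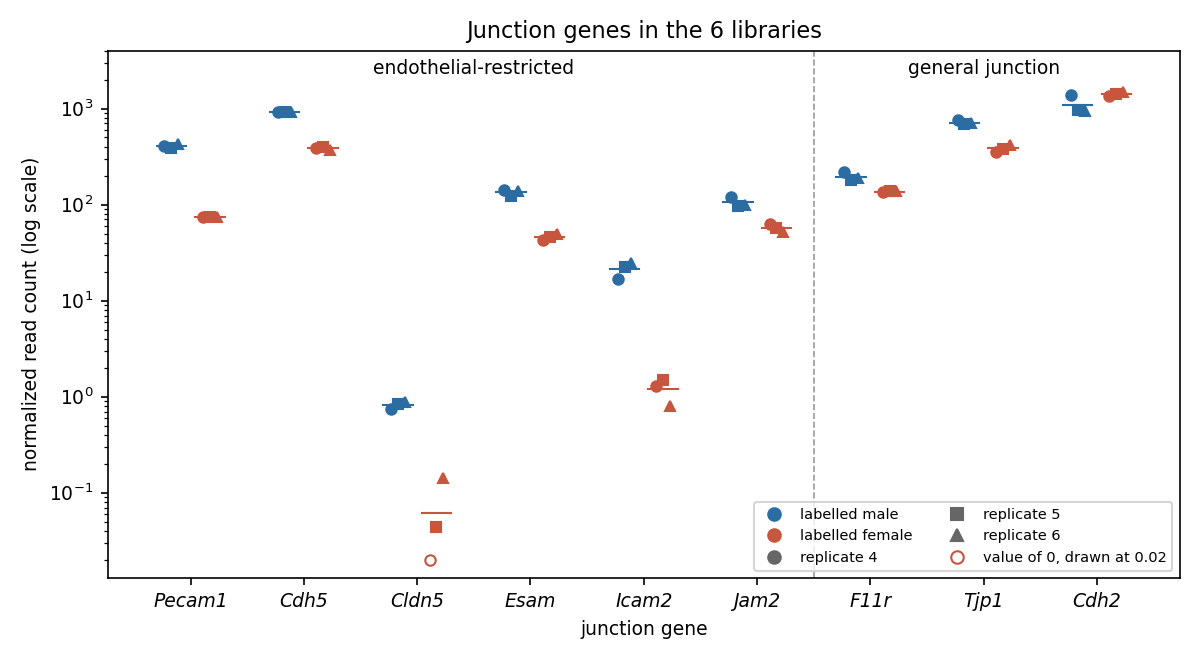
Normalized read count (log scale) of the 9 junction genes in each of the 6 libraries, with blue symbols for male-labelled libraries, red for those labelled female, symbol shape for the replicate number and a line at each group mean. The groups stand apart for 8 genes, and Cdh2 is the exception because male 4 (1391) lies among the female-labelled libraries; the 0 of Cldn5 in female 4 is drawn at 0.02.

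Cdh5 encodes VE-cadherin, the adhesive protein of endothelial adherens junctions. It was read at 925, 918 and 929 in male 4, 5 and 6 and at 392, 397 and 374 in female 4, 5 and 6. The 3 libraries of each group lay close together, and the groups did not overlap. Cdh5 fell to 41.9% of the male-labelled level, from 924 ± 5.58 to 387 ± 11.9 (SD, n = 3). Its log2FC was -1.25 (SE 0.06, adjusted p 4.14e-07). Even so it remained an abundant RNA. Per kb of transcript it lay between the 95.15 and 95.39 percentiles of 12960 genes in female-labelled libraries and between the 97.95 and 98.05 percentiles in male-labelled ones.

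Cdh2 encodes N-cadherin, which endothelial cells carry mostly outside their junctions and which mesenchymal and mural cells use as their main cadherin. It was read at 1391, 959 and 948 in male 4, 5 and 6 and at 1365, 1405 and 1475 in female 4, 5 and 6. Male 4 fell inside the range of the female-labelled libraries, and male 5 and male 6 lay below all of them. The group means were 1099 ± 253 and 1415 ± 55.7 (SD, n = 3), with a log2FC of 0.39 (SE 0.14, adjusted p 0.0367). Without male replicate 4 it was 0.57 (adjusted p 2.55e-06), in a fit that called 74.8% of the genes tested. The call was lost without any 1 of the other 5 libraries (log2FC 0.29 to 0.41, adjusted p 0.0756 to 0.122) and under edgeR's quasi-likelihood test on recovered reads (0.35, adjusted p 0.0565), which called 68.0% of genes. The fits without male 5, male 6, female 4, female 5 and female 6 called 63.4%, 62.4%, 61.1%, 60.3% and 62.5% of the genes tested.

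The balance of the 2 cadherins differed more than either gene alone, as it must where 1 mean is lower and the other higher. Part of this rests on Cdh2, whose groups overlapped. Per kb of transcript, the ratio of Cdh2 to Cdh5 was 1.24, 0.862 and 0.842 in male 4, 5 and 6. It was 2.88, 2.92 and 3.25 in female 4, 5 and 6. VE-cadherin and N-cadherin RNA were thus at similar levels per kb in male-labelled libraries, with a mean ratio of 0.982 ± 0.225 (SD, n = 3). N-cadherin RNA led in female-labelled libraries, with a mean ratio of 3.02 ± 0.206 (SD, n = 3). The ratio is given as a description and was not tested.

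**Figure D2:**
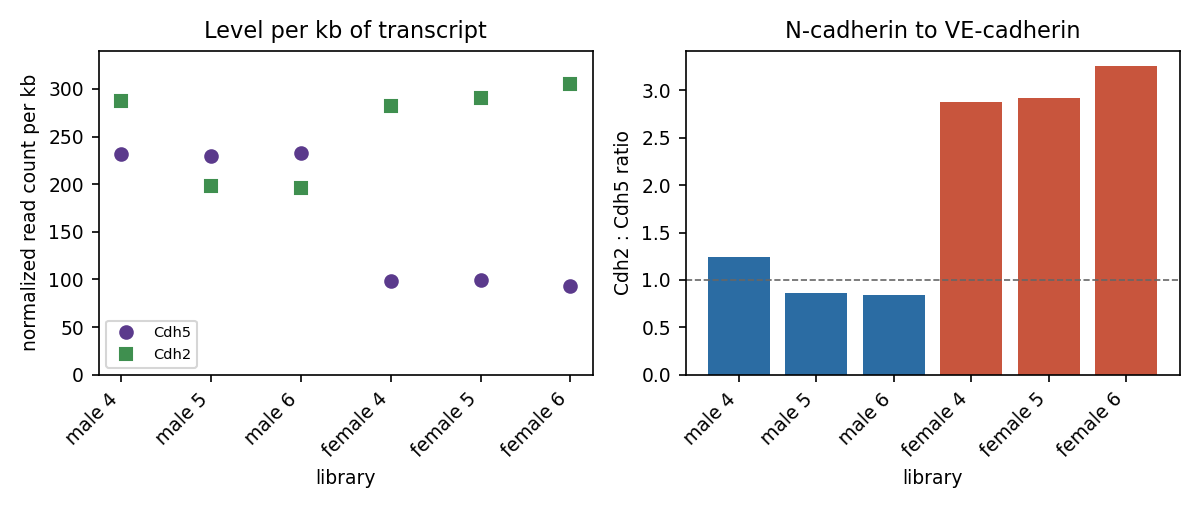
Left, level of Cdh5 (circles) and Cdh2 (squares) in normalized read counts per kb of transcript in each library. Right, the ratio of Cdh2 to Cdh5 per kb in each library (blue, labelled male; red, labelled female; dashed line, equal levels), which runs from 0.842 to 1.24 in male-labelled and from 2.88 to 3.25 in female-labelled libraries.

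Pecam1 encodes CD31, the homophilic adhesion molecule on which the cells had been selected. Its values were 405, 391 and 423 in male 4, 5 and 6 and 73.5, 73.8 and 74.5 in female 4, 5 and 6. The female-labelled libraries were nearly equal, and no library of one group came near the other group. The level was 5.50-fold lower in female-labelled libraries (73.9 ± 0.540 against 407 ± 16.2, SD, n = 3), with a log2FC of -2.44 (SE 0.06, adjusted p 2.04e-08). Of all tested genes, 2.4% had a lower log2FC. Relative to Cdh5 the level per kb of Pecam1 was 0.495 to 0.529 in male-labelled and 0.216 to 0.231 in female-labelled libraries, so the 2 genes did not fall by the same factor. Of its 50-base words, 0.998% also occur in transcripts of other genes.

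Icam2 encodes ICAM-2, a ligand of leukocyte integrins that resting endothelium carries. It was at 16.9, 22.5 and 24.6 in male 4, 5 and 6 and at 1.29, 1.50 and 0.807 in female 4, 5 and 6. These values rest on 408 to 698 reads in each library labelled male and on 17 to 34 reads in each labelled female. Per kb of transcript, Icam2 lay at the 66.0 to 74.7 percentile of genes in male-labelled and at the 15.5 to 21.8 percentile in female-labelled libraries. Its level was 17.8-fold lower in female-labelled libraries. The log2FC of -3.34 (SE 0.17, adjusted p 9.22e-07), the lowest of the 8 members tested, is understated at the level of the female-labelled libraries by the pseudocount, and edgeR on recovered reads gave -4.15 (adjusted p 1.38e-06). A lower log2FC was found for 0.867% of tested genes.

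Esam encodes an immunoglobulin-type adhesion molecule of endothelial tight junctions that platelets carry too. It was read at 142, 123 and 138 in male 4, 5 and 6 and at 42.5, 46.4 and 49.1 in female 4, 5 and 6. The groups were well apart, and Esam fell to 34.2% of the male-labelled level (46.0 ± 3.28 against 134 ± 10.2, SD, n = 3). Its log2FC of -1.53 (SE 0.08, adjusted p 1.04e-06) lay between those of Pecam1 and Cdh5.

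Jam2 and F11r encode the junctional adhesion molecules JAM-B and JAM-A. JAM-B is found on endothelium of particular vessels and on some other cells, whereas JAM-A is common to endothelium, epithelium, platelets and leukocytes. Jam2 was at 121, 97.4 and 98.1 in male 4, 5 and 6 and at 62.6, 57.6 and 51.7 in female 4, 5 and 6. F11r was at 216, 180 and 189 in male 4, 5 and 6 and at 134, 139 and 137 in female 4, 5 and 6. Neither gene overlapped between groups, and in both male 4 was the highest library. Jam2 fell with a log2FC of -0.87 (SE 0.10, adjusted p 0.000117) and F11r with one of -0.51 (SE 0.08, adjusted p 0.000398). Per kb of transcript, F11r stood above Jam2 in every library, with a ratio of 3.11 to 3.34 in male-labelled libraries and 3.72 to 4.61 in female-labelled libraries.

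Tjp1 encodes ZO-1, the cytoplasmic scaffold that ties claudins and JAMs to actin in nearly all cells with tight junctions. Its values were 759, 686 and 702 in male 4, 5 and 6 and 356, 377 and 421 in female 4, 5 and 6. The groups did not overlap. Tjp1 fell to 53.7% of the male-labelled level (385 ± 32.9 against 716 ± 38.2, SD, n = 3), with a log2FC of -0.90 (SE 0.08, adjusted p 1.70e-05). This value of a general gene lies beside that of the endothelial-restricted Jam2 (-0.87), and the difference between the 2 genes was not tested.

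Cldn5 encodes claudin-5, the sealing claudin of tight endothelium that is known best from the blood-brain barrier. It was barely detected. The male-labelled libraries held 18, 22 and 25 reads of Cldn5, and those labelled female held 0, 1 and 3. As normalized read counts these are 0.746, 0.839 and 0.883 against 0, 0.0442 and 0.142, so even in male-labelled libraries the gene lay at the 14.0 to 14.9 percentile of genes per kb. Pooled over each group, 65 reads stood against 4. That puts the level in female-labelled libraries at 7.14% of the male-labelled level (exact 95% interval 1.89% to 19.2%, counting error only). It was under the filter of the main test, and edgeR on recovered reads, which tested it and called 34.5% of genes as lower, gave an adjusted p of 0.000545.

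Within the male-labelled group, male 4 had the highest value of the 3 libraries for Esam, Jam2, F11r, Tjp1 and Cdh2 and the lowest for Icam2 and Cldn5. Without male 4, in a fit that called 35.9% of all genes as lower and 74.8% in either direction, the 7 members called lower kept that call, with log2FC of -2.44 for Pecam1, -1.25 for Cdh5, -1.49 for Esam, -3.50 for Icam2, -0.76 for Jam2, -0.43 for F11r and -0.85 for Tjp1.

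The levels of the members per kb fell in a different order in the 2 groups. In the male-labelled libraries, Cdh5 (231 ± 1.40) and Cdh2 (227 ± 52.1) led and did not differ beyond their spread. They were followed by Pecam1 (118 ± 4.72), Tjp1 (102 ± 5.41), F11r (77.5 ± 7.48), Esam (72.0 ± 5.46), Jam2 (24.1 ± 3.05), Icam2 (16.7 ± 3.12) and Cldn5 (0.581 ± 0.0491), all as normalized read counts per kb (SD, n = 3). F11r and Esam overlapped between libraries. In the female-labelled libraries, Cdh2 (292 ± 11.5) led alone, then came Cdh5 (97.0 ± 2.97). Tjp1 (54.6 ± 4.67) and F11r (54.3 ± 0.947) were next and within each other's spread, and the general genes so took 3 of the 4 highest places. Esam (24.7 ± 1.76) and Pecam1 (21.5 ± 0.157) followed, then Jam2 (13.1 ± 1.26), Icam2 (0.935 ± 0.278) and Cldn5 (0.0439 ± 0.0515).

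**Figure D3:**
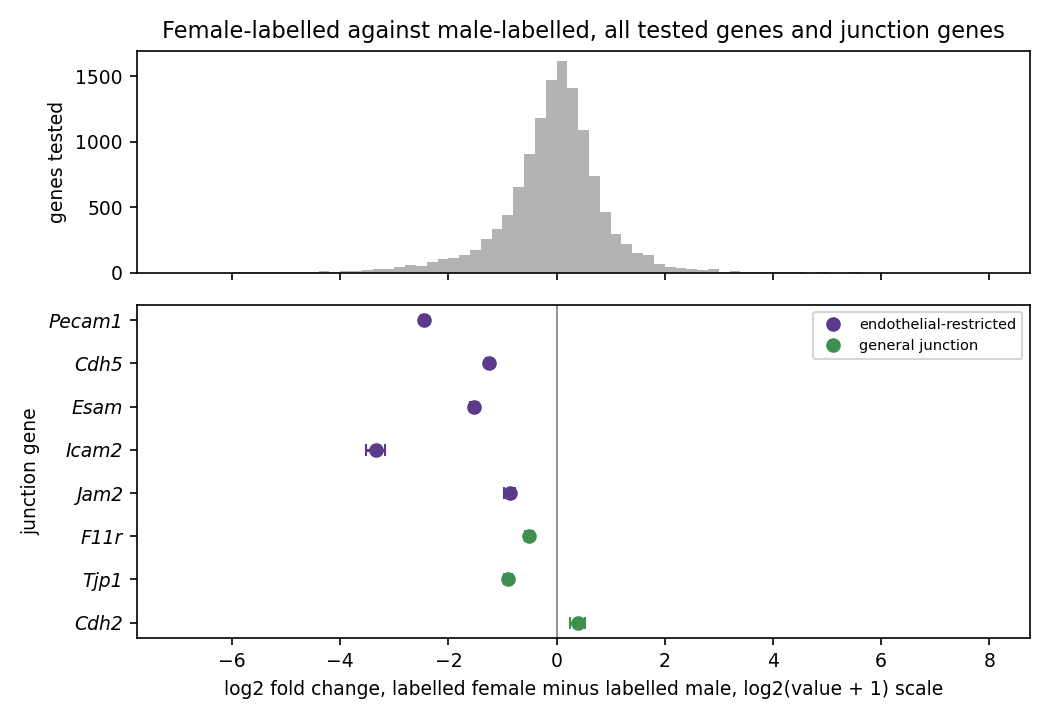
Top, histogram of the log2 fold change (labelled female minus labelled male, log2(value + 1) scale) of all 12568 tested genes, with a median of 0.01. Bottom, the 8 tested junction genes on the same axis with bars of 1 SE; the 5 endothelial-restricted genes lie between -3.34 and -0.87, and the 3 general genes between -0.90 and 0.39.

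As 1 number for each library, the mean log2(value + 1) of the 6 endothelial-restricted genes minus that of the 3 general genes was -3.00, -2.70 and -2.65 in male 4, 5 and 6. It was -4.08, -4.10 and -4.25 in female 4, 5 and 6. The group means differed by -1.36 (-4.15 ± 0.0936 against -2.78 ± 0.187, SD, n = 3). The size depends on how members are summed: with medians in place of means it was -0.30. Since the members were chosen with results known, no p is given.

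In the authors' deposited table, 5 of the 9 members had a false discovery rate under 0.05, where 25.8% of all listed genes did and 13.8% did so as lower. These were Pecam1 (fold change -5.50, false discovery rate 0.00970), Cdh5 (-2.38, 0.00557), Esam (-2.92, 0.0124), Icam2 (-17.7, 6.10e-05) and Tjp1 (-1.86, 0.0307). In the authors' deposited table Cldn5 (0.0650), Jam2 (0.0581), F11r (0.160) and Cdh2 (0.359) were above 0.05. The sign of each member's fold change in the authors' deposited table was that of the difference in means found here.

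Beyond the members, 119 other junction genes in 6 lists were looked up, of which 93 were listed and 84 tested. Lower RNA was called for 37 and higher RNA for 28, where 69.3% of all tested genes were called, 34.6% as lower and 34.6% as higher. These shares are the background for each list below. The 84 genes had a median log2FC of -0.03, beside 0.01 for all tested genes. Without male 4, 79 of these genes were tested, with 32 called lower and 33 higher, in a fit that called 35.9% of all genes as lower and 38.9% as higher. The lists had unlike counts, and no test was made between lists.

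Few genes of the proteins that tie cadherins to actin were lower. Of 15 tested adherens junction partners, 8 were called higher and 1 lower (median log2FC 0.36). Of the catenins, Ctnnb1 (β-catenin, 979 ± 108 in male-labelled against 865 ± 10.6 in female-labelled libraries, SD, n = 3) and Ctnna1 (α-catenin, 741 ± 27.7 against 805 ± 25.4) were not called. Jup, which encodes plakoglobin (γ-catenin), was higher (63.7 ± 1.45 against 120 ± 10.8, log2FC 0.90, adjusted p 1.40e-05). Ctnnd1, which encodes the p120 catenin that keeps cadherins at the surface, was higher too (395 ± 48.6 against 503 ± 1.34, log2FC 0.36). The largest rises were those of Pvrl3 (nectin-3, log2FC 1.22) and Actn1 (α-actinin, 1.05), and the single fall was that of Pvrl2 (nectin-2, -0.54). The catenins were named after their values were seen.

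Tight junction genes moved both ways, with 9 of 17 called lower and 7 called higher. Without male replicate 5, 5 of 15 were called lower and 7 higher, in a fit that called 30.4% of all genes as lower and 33.1% as higher. The largest falls were in claudins: Cldn15 was at 59.8, 80.0 and 91.0 in male 4, 5 and 6 and at 0.415, 1.02 and 1.95 in female 4, 5 and 6. Cldn11 was at 41.8 to 44.7 in male-labelled and 0.415 to 0.884 in female-labelled libraries. It passed the filter only through the male-labelled ones and was not tested by limma without any 1 of them. Per kb of transcript, the claudins of male-labelled libraries were led by Cldn15 (40.4 ± 8.34), Cldn11 (23.4 ± 0.872) and Cldn12 (11.2 ± 1.84), with Cldn5 next at 0.581 ± 0.0491 (SD, n = 3). In female-labelled libraries Cldn12 led, at 16.0 ± 0.771 per kb. The largest rises were those of Cldn6, at 0.0381 to 0.106 in male-labelled (1 to 3 reads each) and 2.70 to 4.32 in female-labelled libraries, with a log2FC of 2.02 (5.61 by edgeR on recovered reads), and of Cxadr, an adhesion molecule best known as a virus receptor (log2FC 1.54). Cldn6 passed the filter only through the female-labelled libraries and was not tested by limma without any 1 of them. Occludin (Ocln) lay under the filter, at 0.126 ± 0.0502 in male-labelled and 0.311 ± 0.119 in female-labelled libraries (SD, n = 3).

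Of 22 endothelial junction regulators, 10 were called lower and 7 higher. Without male replicate 4, 8 of 20 were called lower and 9 higher, where 35.9% of all genes were called lower and 38.9% higher. Without male replicate 5 it was 7 and 7 of 20, where 30.4% of all genes were called lower and 33.1% higher. Tie1, an endothelial receptor tyrosine kinase, was at 47.6 to 51.6 in male-labelled and 4.38 to 5.35 in female-labelled libraries (log2FC -3.09, SE 0.09, adjusted p 6.81e-08). Rasip1, a Rap1 effector that holds endothelial junctions, was at 4.31 to 8.23 and 0.133 to 0.332 (log2FC -2.59, and -4.87 by edgeR on recovered reads). Rasip1 and Robo4, both counted as lower, were under 1 in every female-labelled library. They passed the filter only through the male-labelled libraries and were not tested by limma without any 1 of those. Ptprb, the endothelial phosphatase VE-PTP that binds VE-cadherin, moved the other way from Cdh5. It was at 4.31 to 5.43 in male-labelled and 57.7 to 65.4 in female-labelled libraries, with a log2FC of 3.47 (SE 0.10, adjusted p 6.76e-08). Krit1, of the cerebral cavernous malformation complex, was also higher (0.91).

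Leukocyte adhesion molecules were the list with the lowest median among the 6, at a log2FC of -1.14. Of 15 tested, 12 were called lower and 1 higher, beside 34.6% called in each direction over all tested genes. Podxl (podocalyxin) was at 61.7 to 75.5 in male-labelled and 7.39 to 11.2 in female-labelled libraries. Cd200, an inhibitory ligand for myeloid cells, was at 28.2, 13.7 and 14.2 in male 4, 5 and 6 and at 1.58 to 1.76 in female-labelled libraries. Alcam was the gene called higher (log2FC 0.48).

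Among 8 tested other cadherins, 2 were called lower and 3 higher. Cdh13, the GPI-anchored T-cadherin of vessels, was lower (86.5 to 109 against 21.0 to 23.8, log2FC -2.09), as was the weakly expressed Cdh24 (-0.53), whose call was lost without female replicate 6 (adjusted p 0.0594). Cdh11, the cadherin of fibroblasts, was higher (3.05 to 4.03 against 14.9 to 15.9, log2FC 1.90), as was Cdh6 (0.177 to 0.229 against 2.14 to 2.74). The log2FC of Cdh6 was 1.52 with the pseudocount of 1 and 3.56 by edgeR on recovered reads. Cdh6 passed the filter only through the female-labelled libraries, and not without any 1 of them. E-cadherin (Cdh1), of epithelium, was not called (0.839 to 1.33 in male-labelled and 0.807 to 1.20 in female-labelled libraries).

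Of 7 tested connexins, 3 were called lower and 2 higher. Gja4 (connexin 37, of arterial endothelium) was at 260, 325 and 356 in male 4, 5 and 6 and at 6.31, 4.38 and 5.18 in female 4, 5 and 6, a log2FC of -5.64. Gja1 (connexin 43) was at 691 to 777 and 201 to 211 (-1.85). Gjc1 (connexin 45) and Gjc3 were higher, by log2FC of 0.98 and 0.90.

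**Figure D4:**
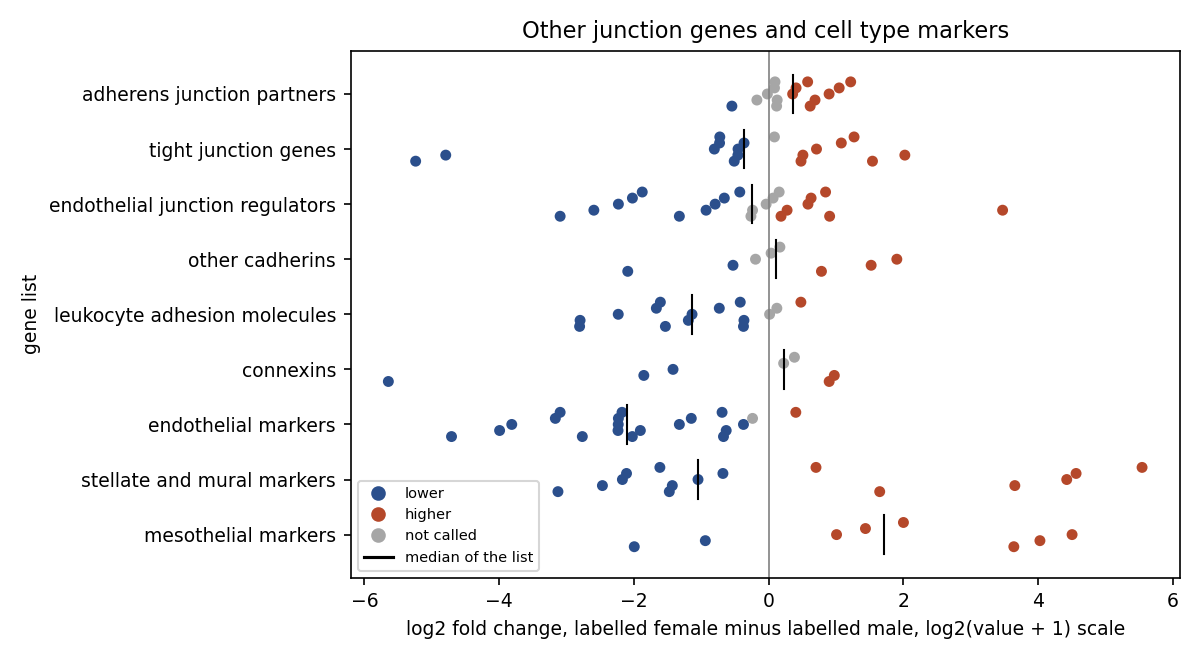
Log2 fold change (labelled female minus labelled male, log2(value + 1) scale) of each tested gene of 6 lists of other junction genes and 3 lists of cell type markers, coloured by call, with a black bar at the median of each list. Leukocyte adhesion molecules (median -1.14) and endothelial markers (median -2.10) lie mostly below 0, and adherens junction partners (median 0.36) and mesothelial markers (median 1.72) mostly above it. Without any 1 female-labelled library only 4 mesothelial markers pass the filter, with medians of -0.09 to 0.11.

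Markers of cell types differed along with the junction genes. Of 20 tested endothelial markers outside the members, 18 were lower and 1 higher by the same test (median log2FC -2.10), beside 34.6% called in each direction over all tested genes, and 6 of the markers also stand in the lists above. Their summed value was 1391 to 1448 in male-labelled and 843 to 885 in female-labelled libraries. Vwf, Nos3 and Robo4 were under 1 in every female-labelled library, so they passed the filter only through the male-labelled ones. Without any 1 male-labelled library 17 markers were tested, with 15 called lower and 1 higher, in fits that called 62.4% to 74.8% of all genes. Eng (endoglin) was called higher (0.40) and Emcn (endomucin) lower (-0.37). Sinusoidal markers were mostly low or missing in both groups: Clec4g and Fcgr2b were at or near 0, and only 4 of 10 passed the filter. By edgeR on recovered reads 7 were tested. Either way 2 were called lower and 2 higher. Lyve1 (470 to 513 against 4.37 to 5.48) made up most of the list's sum in male-labelled libraries (496 to 535) and little of it in female-labelled ones (46.4 to 48.9). Gata4, the transcription factor of sinusoidal identity that mesothelial and stellate cells share, was higher in female-labelled libraries (3.67 to 3.85 against 31.2 to 32.9), where it led the list. Like Lyve1, Stab1 was lower in female-labelled libraries (14.2 to 18.5 against 1.61 to 2.21, log2FC -2.49). Maf was higher (1.60 to 2.11 against 5.73 to 6.72, log2FC 1.37).

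Stellate and mural markers moved both ways, with 9 of 15 called lower and 6 higher, and their summed value overlapped (2901 to 3738 against 3579 to 4298). Acta2 was higher (134, 56.4 and 45.9 in male 4, 5 and 6 against 1513 to 1887), and Col3a1 was lower (1115 to 1553 against 205 to 242). Of 8 tested mesothelial markers 6 were called higher and 2 lower, while their sum overlapped (525 to 616 against 553 to 568). Without any 1 female-labelled library only 4 of them passed the filter, with 2 called higher, 2 lower and a median log2FC of 0.11, 0.08 and -0.09 without female 4, 5 and 6, in fits that called 60.3% to 62.5% of all genes. Upk3b, Upk1b, Wt1 and Gpm6a then fell out, as each was under 1 in every male-labelled library. Upk3b was at 0 in male-labelled against 1.37 to 4.65 in female-labelled libraries, and Upk1b at 0.498 to 0.648 against 29.1 to 41.1. Wt1 was at 0.0829 to 0.114 against 11.7 to 13.6, and Gpm6a at 0.494 to 0.746 against 2.16 to 6.89. Msln was at 17.1 to 20.6 in male-labelled and 299 to 358 in female-labelled libraries, and Krt19 moved the other way (407 to 498 against 97.8 to 138).

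Macrophage, hepatocyte and lymphocyte markers left few reads. Macrophage markers summed to 7.51 to 10.1 and 13.2 to 15.8, led by Cd68 and Csf1r, with Cd5l, Emr1, Ptprc, Tyrobp and Vsig4 at or near 0. Hepatocyte markers summed to 9.62 to 12.7 and 22.9 to 40.0, most of it Ass1 (7.80 to 10.3 against 22.6 to 39.6), with Cps1 and Ttr at or near 0. Fgb (0.848 to 1.14 against 0 to 0.133) and Alb (0.584 ± 0.0145 against 0.0435 ± 0.0416, SD, n = 3) went the other way with groups apart. They were under the filter, and edgeR on recovered reads, which tested 3 of the hepatocyte markers, called 2 lower and 1 higher. No lymphocyte marker was listed. Platelet markers, whose cells share Pecam1, Icam2, Esam and F11r with endothelium, were few: 3 of 9 were listed, all 3 were called lower, and their sum was 34.5 to 46.4 in male-labelled and 3.62 to 4.65 in female-labelled libraries, led by Itga2b and Pf4. Of 6 tested cholangiocyte markers 5 were called lower and 1 higher, led by Spp1 and Krt19, with sums of 1648 to 2496 and 513 to 615. The part of any of these cell types in the junction differences was not tested.

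Over the 6 libraries, the genes outside the members whose centred log2(value + 1) lay closest to that of Pecam1 were Thra, Slc2a1 and Adamts4, with root mean square distances of 0.033, 0.044 and 0.049 log2 units. For Cdh5 they were Hs6st1, Ptprs and Maml1, at 0.021, 0.039 and 0.041. With 2 groups of 3 libraries, such a match reflects mostly a difference of the same size between the groups.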

How the data were processed

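Each of the 6 library columns of the deposited table carries a sample's title, and 0 other columns hold values of samples. The submitters' processing notes name Bowtie2, RSEM, edgeR and the build mm39, with no versions or roles, and the annotation and the rule behind the listed genes are not given in the sources used here. The signal in these columns, as deposited, is a normalized read count: in every column 100% of values were whole multiples (tolerance 0.001) of the smallest value above 0, so reads could be recovered. Per the file headers, the table also has a score, a signed fold change of the authors, and p-values of theirs, plain and as a false discovery rate.

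limma 3.58.1 (R 4.3.3, eBayes with trend) was fitted to log2(value + 1) of genes that reached a value of 1 in 3 or more libraries, with a threshold of 0.05. Genes under 1 in every library of a group passed this filter only through the other group, and the counts of lists include such genes. Fold changes understate the change of low genes on this scale. Alternatives were RLE factors, quantile normalization, a pseudocount of 0.1, no filter, a minimum of 10 reads per library, edgeR 4.0.16, DESeq2 1.42.0, voom, the replicate block, each library left out and a threshold of 0.01. Leaving out Cldn5 from the difference between the sets was added after seeing the data. The scripts were tested on simulated reads.

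Members and lists were chosen with earlier results of these data known. All members were named. From each junction list the 2 largest falls and 2 largest rises were named, if called, with groups apart and a mean of 1 or more, and from each marker list the 2 most abundant genes. Further genes named by function (catenins, Ocln, Cdh1, Cldn12, Alb, Stab1, Maf and markers at or near 0) were picked after their values were seen. Genes named only for lying under 1 in a whole group were picked likewise. Lengths, by symbol from GENCODE M21 (GRCm38), were those of the transcript with the longest coding part and matched 12960 of 13595 genes (95.3%). In that annotation no exon of a member overlaps another gene. List genes absent under their symbol were sought under older symbols (6 found).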

Additional observations from a re-analysis of the deposited data

How the results depend on the processing

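Of 128 values recomputed for the 8 tested members, 121 kept direction and call, and the other 7 were all of Cdh2, which kept its direction. Members called lower numbered 7 in each setting, and 8 in the 4 that also test Cldn5 (no filter, edgeR, DESeq2 and voom). At the threshold of 0.05 these settings called from 60.3% (without female replicate 5) to 74.8% (without male replicate 4) of all genes tested, and at 0.01 7147 genes were called. Members called higher, which was Cdh2, fell to 0 under edgeR, with a threshold of 0.01, and in 5 of the 6 fits that left out 1 library (range 0 to 1, with 1 only without male replicate 4). The difference between endothelial-restricted and general genes was -1.79 with a pseudocount of 0.1 and -0.30 with medians. The value with medians rests on Esam and Jam2 (log2FC -1.53 and -0.87) against Tjp1 (-0.90), the middle genes of their sets in every library. The difference was -1.55 without Cldn5, an alternative added after seeing the data. Of 596 values of other named genes, 594 kept direction and call. Ddx3y, not called, changed sign without male replicate 5 (range over the fits without 1 library -0.21 to 0.13), and Cdh24 lost its call without female replicate 6. Cldn6, Rasip1 and Cdh6 had larger log2 fold changes under count tests, as their levels are low. Fits without a library test fewer genes, because the filter still asks for 3 libraries.

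Same-numbered libraries did not deviate together from their group means (correlations -0.09, -0.03 and -0.17). With 3 libraries per group and male 4 apart from its group, these correlations cannot show whether the numbers pair libraries. The replicate block gave 8314 calls in place of 8704, and each member kept its call. Values near 3 reads (0.106 to 0.142) limit Cldn5.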
